A study of Mus musculus with 16 samples.

Results

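The BAG co-chaperones and a set of their heat shock partners were followed across 16 libraries of cultured mouse neural stem cells, 8 of ribosome footprints and 8 of cytoplasmic RNA. The 10 members, out of 20409 named genes in the count table, were the BAG family genes Bag1, Bag2, Bag3, Bag4, Bag5 and Bag6, the small heat shock protein genes Hspb1 and Hspb8, the heat shock factor gene Hsf1 and the constitutive HSP70 gene Hspa8. They were chosen by the measured values of Bag3, whose counts were higher in cells lacking Fmr1, and by the known partnerships of its protein. The values of Bag3 between genotypes are therefore given as a description without a test, and the question addressed with the other 9 genes was whether its partners or the heat shock response genes differed between the genotypes as well.

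The BAG domain, as known from BAG1 and BAG3, binds the ATPase domain of HSP70 chaperones and releases nucleotide, and with it the client protein. BAG3 couples HSP70 to small heat shock proteins, above all HSPB8, and hands clients to autophagy, whereas BAG1 links HSP70 to the proteasome. HSF1 is the transcription factor that switches on chaperone genes in heat or proteotoxic stress, and BAG3, HSPB1 and the inducible HSP70 genes are among its known targets. In the nervous system BAG3 is known from neurons and astrocytes, where it takes part in the clearance of misfolded proteins.

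The cells were adult neural stem cells of the dentate gyrus, taken from FVB/N males aged 8 to 10 weeks that were either Fmr1 knockout (KO, Fmr1-/y) or their wild type littermates (WT). Each genotype had 4 replicates, which the labels describe as independent isolations, and every lysate gave 1 footprint library (KO RPF, WT RPF) and 1 RNA library (KO RNA, WT RNA). All cultures of both genotypes grew in medium with 20 ng/ml EGF and 20 ng/ml FGF2 and received 100 µg/ml cycloheximide, which arrests ribosomes on the RNA, for 10 min before harvest. The molecular identifier of the footprint libraries was 5 nt long in the first pair of replicates (1 and 2) and 8 nt long in the second pair (3 and 4). The cells are a bulk culture, in which fewer cells of a type and less RNA per cell cannot be told apart.

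Promoter windows are shown for the 3 members that hold a heat shock element half-pair, since these letters bear on the question of a heat shock response. Of the 10 members, 7 matched the RefSeq promoter table of GRCm38.p6, which gives 250 bases before and 50 bases after a gene's start. Bag4, Hsf1 and Hspa8 had no entry. Forms with 2 units of the element, GAANNTTC and TTCNNGAA, were searched, each of which reads the same on both strands, as well as 3 alternating units in a row. A match is in capitals below, 5′ to 3′ on the strand of the gene.
Bag3, chr7:128523333-128523632, plus strand: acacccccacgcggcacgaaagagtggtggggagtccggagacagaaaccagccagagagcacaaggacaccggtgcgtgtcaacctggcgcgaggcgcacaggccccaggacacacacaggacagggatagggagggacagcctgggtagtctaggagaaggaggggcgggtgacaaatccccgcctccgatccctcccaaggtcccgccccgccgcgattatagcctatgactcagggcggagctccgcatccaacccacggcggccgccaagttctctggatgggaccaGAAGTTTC
Hspb8, chr5:116422815-116423114, minus strand: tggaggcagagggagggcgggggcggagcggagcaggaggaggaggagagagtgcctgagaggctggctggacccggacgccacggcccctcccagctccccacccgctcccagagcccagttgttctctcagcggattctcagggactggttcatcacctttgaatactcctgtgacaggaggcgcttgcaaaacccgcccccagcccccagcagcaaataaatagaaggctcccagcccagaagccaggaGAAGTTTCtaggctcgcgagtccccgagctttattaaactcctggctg
Hspb1, chr5:135887669-135887968, plus strand: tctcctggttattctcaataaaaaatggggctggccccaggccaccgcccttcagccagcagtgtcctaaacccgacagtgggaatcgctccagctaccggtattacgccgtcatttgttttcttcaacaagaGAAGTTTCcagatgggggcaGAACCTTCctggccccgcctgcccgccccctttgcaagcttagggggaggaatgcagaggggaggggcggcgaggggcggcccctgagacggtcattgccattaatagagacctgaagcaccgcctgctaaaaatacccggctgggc
Bag3 held 1 match, GAAGTTTC, at position 43, counted from 1 at the first base of the gene, and Hspb8 held the same 8 letters at position 3. Hspb1 held 2 matches, GAAGTTTC at -117 and GAACCTTC at -97, upstream of the start. The windows of Bag1, Bag2, Bag5 and Bag6 held neither form, and none of the 8 windows of the matched members held 3 units in a row. Over all 26742 genes of the table, 9.08% had GAANNTTC and 9.64% TTCNNGAA in a window, and either form stood in 15.1% of 32544 windows. Of the genes, 0.669% had 3 units in a row. A match is a description of these letters and not a binding site.

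Library totals ran from 9430732 to 17220236 counts for footprints and from 5343042 to 6600023 for RNA. The targeted gene followed the labels in footprints, where Fmr1 had 12.7 to 27.0 CPM (TMM-scaled CPM, a share of library counts) in KO and 129 to 150 CPM in WT (log2 fold change -2.93, SE 0.22, edgeR quasi-likelihood adjusted p = 0.0140). That call was lost with the replicate number as a block (adjusted p = 0.143) and without KO 1, KO 2, WT 2, WT 3 or WT 4 (0.0565 to 0.134). Fmr1 RNA had 3.35 to 30.8 CPM in KO and 27.4 to 107 CPM in WT, and these ranges overlapped. Of the stem and progenitor markers, 12 of 12 had counts in both assays, although Prom1 stood at a rounded TPM of 0 throughout. Any count met this rule, as 9 of 9 astrocyte, 8 of 8 neuroblast and neuron and 7 of 7 mural and smooth muscle markers did. The rule therefore does not set the label of neural stem cell apart. Summed RNA of the stem and progenitor markers was 3216 to 7411 TPM in KO and 4042 to 8956 TPM in WT. Astrocyte markers also had RNA, 883 to 2750 TPM in KO and 701 to 3591 TPM in WT, as did oligodendrocyte lineage markers with 1642 to 2477 TPM in KO and 1753 to 2424 TPM in WT. The latter sum was mostly Olig1 (mean RNA 1231.5 TPM in KO, 1093 TPM in WT) and Olig2 (722 and 760.5 TPM), with Sox10 at 0 TPM. Similar sums can hide single genes. Mean RNA of Sparcl1 was 483 TPM in KO and 87 TPM in WT, and that of Nkx2-2 was 8.75 and 89 TPM. Neuroblast and neuron markers had 200 to 520 TPM in KO RNA and 173 to 614 TPM in WT RNA. In footprints they had 597 to 823 TPM in KO and 706 to 1290 TPM in WT. Map2 was the largest part of these sums, with mean RNA of 270 TPM in KO and 371 TPM in WT, while Dcx had 0.25 and 1.25 TPM. Summed microglial marker RNA was at most 2 TPM in either genotype, with Aif1 and Cx3cr1 at 0 counts, and endothelial marker RNA was at most 7 TPM in KO and 5 TPM in WT.

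Bag3, on chromosome 7 from 128523583 to 128546981 in GRCm38.p6, was present in every KO library and close to undetected in WT. Its footprint counts were 255, 141, 66 and 204 in KO replicates 1 to 4, against 0, 2, 0 and 0 in WT replicates 1 to 4. Its RNA counts were 125, 40, 41 and 177 in KO, against 4, 0, 3 and 0 in WT. Every KO library lay above every WT library in both assays. Within KO, replicates 1 and 4 were the high ones and replicates 2 and 3 the low ones in both assays. Footprints averaged 13.02 ± 6.72 CPM in KO and 0.038 ± 0.076 CPM in WT (SD, n = 4 each). RNA averaged 15.3 ± 10.3 CPM in KO and 0.32 ± 0.388 CPM in WT (SD, n = 4 each). Scaled to TMM-adjusted library totals, the ratio of summed KO to summed WT counts was 295 for footprints (exact 95% interval 81.2 to 2438) and 53.4 for RNA (25.7 to 134), where the intervals cover counting error only. All WT footprint counts came from WT 2. Of the 10 members, Bag3 was the 1 whose libraries did not overlap between genotypes in either assay. Among all genes tested, KO and WT libraries did not overlap in 1.28% for RNA and in 1.88% for footprints. The separation of Bag3 is what the members were chosen on and carries no test.

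**Figure D1:**
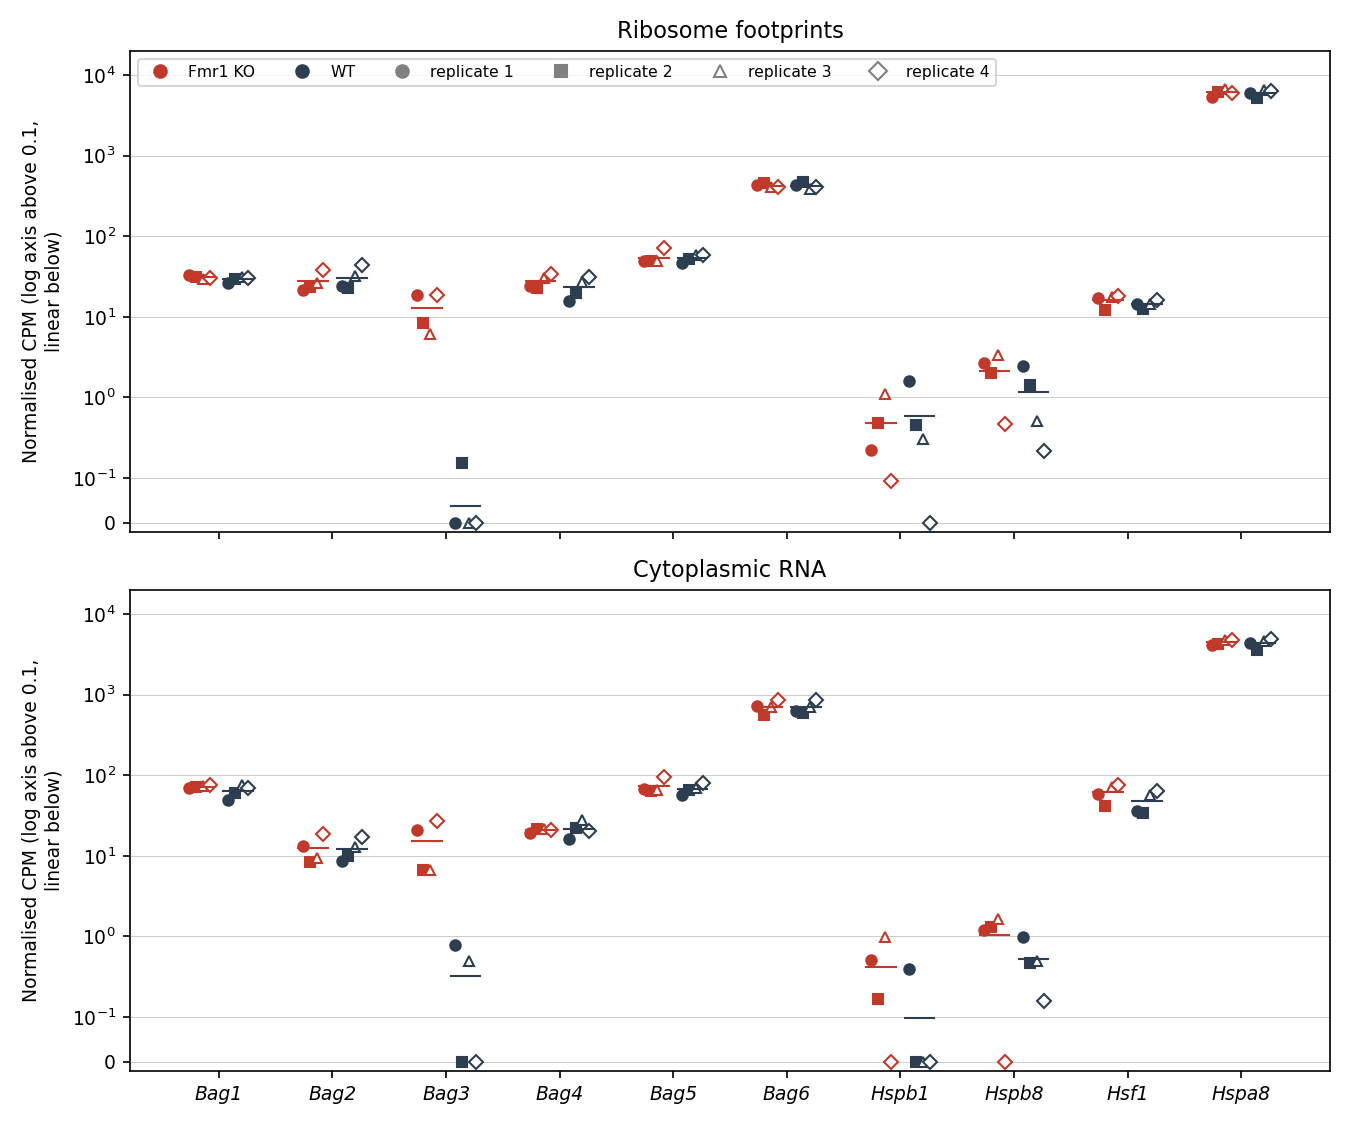
Normalised CPM of the 10 members in each footprint library (upper panel) and RNA library (lower panel), on an axis that is logarithmic above 0.1 and linear below, with KO left of WT, replicates 1 and 2 filled, replicates 3 and 4 open and lines at group means. Bag3 separates KO (6.13 to 18.9 CPM in footprints) from WT (0 to 0.152 CPM), while KO and WT points of the other 9 members overlap.

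Set against other genes, Bag3 remained a low-abundance transcript in KO. On the per-length TPM scale its RNA averaged 9 TPM in KO and 0.25 TPM in WT, which placed it above 19.4% of the genes tested in KO and above 0.0721% in WT. Its footprints averaged 7 TPM in KO, above 26.3% of the genes tested, and 0 TPM in WT. In KO the range of Bag3 RNA, 4 to 15 TPM, overlapped that of Hspb8, 0 to 4 TPM, and lay below that of every other BAG gene.

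Hspa8 encodes the constitutive HSP70 that BAG proteins such as BAG1 and BAG3 act on. It was the most abundant member by far and did not differ detectably between genotypes. Its RNA was at 4073, 4202, 4741 and 4731 CPM in KO replicates 1 to 4, against 4310, 3574, 4624 and 4866 CPM in WT. Its footprints were at 5306, 6211, 6741 and 6035 CPM in KO, against 5906, 5185, 6428 and 6365 CPM in WT. KO and WT libraries interleaved in both assays. On the log2 scale the fold change was 0.03 (SE 0.17) in RNA and 0.03 (SE 0.12) in footprints, and 2 SE on either side spanned folds of 0.81 to 1.29 and of 0.861 to 1.2.

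The other 5 BAG genes gave 0 calls, in a test that called few genes of any kind. Over all genes 0.0262% were called higher and 0.00872% lower in footprints. In RNA 0.00901% were called higher and 0% lower. Bag1, whose protein links HSP70 to the proteasome, had 69.3, 70.9, 73.8 and 75.0 CPM in KO RNA, against 49.6, 60.5, 76.6 and 70.2 CPM in WT RNA. The WT values were the more spread out and enclosed those of KO, and the log2 fold change was 0.17 (SE 0.20). Bag2, a cofactor that restrains the ubiquitin ligase CHIP, had 13.4, 8.28, 9.43 and 18.9 CPM in KO RNA, against 8.63, 9.98, 13.01 and 17.2 CPM in WT RNA. The log2 fold change of Bag2 was 0.03 (SE 0.35) in RNA and -0.14 (SE 0.16) in footprints, and the RNA sign turned on leaving out KO 1, KO 4, WT 1 or WT 2 (range -0.24 to 0.24 over the libraries left out).

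Bag4, which encodes the silencer of death domains that caps TNF receptor 1, was the BAG gene nearest to a difference after Bag3. Its footprints had 24.0, 22.6, 30.6 and 34.1 CPM in KO, against 15.5, 19.5, 26.7 and 31.0 CPM in WT. KO was the higher of each same-numbered pair in 4 of 4 pairs, while the ranges of the groups overlapped. The labels do not say what a shared number marks. How many of all genes reach 4 of 4 pairs was not taken, so that this count carries no weight, for Bag4 or for Hspb8, Hsf1 and Stub1 below. In footprints its log2 fold change was 0.29 (SE 0.14, edgeR adjusted p = 0.999), and in RNA it was -0.05 (SE 0.24). Bag5, which carries several BAG domains and inhibits HSP70 refolding and parkin, had 48.8, 48.9, 48.7 and 70.4 CPM in KO footprints, against 47.0, 51.8, 58.7 and 58.7 CPM in WT. KO 4 stood apart from the other KO libraries, in RNA as well, where KO had 68.3, 63.1, 65.5 and 95.2 CPM and WT had 57.3, 64.9, 69.0 and 80.4 CPM. Its log2 fold change was 0.00 (SE 0.13) in footprints and 0.11 (SE 0.21) in RNA.

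Bag6, a large scaffold that shields membrane proteins on their way to the endoplasmic reticulum, had the smallest fold change of the members tested in both assays. Its footprints had 427, 455, 403 and 406 CPM in KO, against 431, 470, 388 and 404 CPM in WT. Its RNA had 712, 565, 695 and 849 CPM in KO, against 620, 590, 707 and 864 CPM in WT. KO and WT interleaved in both assays. In RNA its log2 fold change was 0.02 (SE 0.21), and 2 SE around the footprint value spanned folds of 0.87 to 1.15. Partners of BAG6 in tail-anchor insertion, a list of which 6 genes were in the table, gave 0 calls, with medians of 0.10 in footprints and 0.12 in RNA against 0.01 for all genes in each assay. Asna1, the ATPase that delivers tail-anchored proteins, had 0.00 (SE 0.11) in footprints and 0.06 (SE 0.25) in RNA, and Sgta, its upstream co-chaperone, had 0.11 (SE 0.10) in footprints and 0.09 (SE 0.27) in RNA.

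The small heat shock genes among the members, Hspb8 and Hspb1, had few counts in both genotypes. Hspb8, on chromosome 5 from 116408491 to 116422864, had 36, 34, 36 and 5 footprint counts in KO replicates 1 to 4, against 34, 19, 5 and 2 in WT. Its RNA counts were 7, 8, 10 and 0 in KO, against 5, 3, 3 and 1 in WT. Replicate 4 was the lowest library of each genotype and assay, and KO and WT overlapped in both assays. Hspb8 passed the filter on low counts in footprints alone, where KO was higher in 4 of 4 same-numbered pairs and averaged 2.12 ± 1.23 CPM, against 1.16 ± 1.02 CPM in WT (SD, n = 4 each). The log2 fold change of 1.12 (SE 0.71, edgeR adjusted p = 0.999) was within the replicate spread, and without KO 3 it was 0.28. KO 4, among the highest libraries for Bag3, was the lowest KO library for Hspb8.

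Hspb1, which encodes HSP27, a chaperone that BAG3 also binds and that heat induces, did not pass the filter in either assay. It had 3, 8, 12 and 1 footprint counts in KO, against 22, 6, 3 and 0 in WT, and 3, 1, 6 and 0 RNA counts in KO, against 2, 0, 0 and 0 in WT. The summed footprint counts gave a KO to WT ratio of 0.685 (exact 95% interval 0.385 to 1.21), but 22 of the 31 WT counts came from WT 1, and without that library the ratio was 1.65 (0.742 to 4.04). The RNA ratio was 4.88 (1.04 to 45.8), from 10 KO counts and 2 WT counts. These intervals cover counting error only and not the spread between cultures, over which KO and WT overlapped in both assays. Neither small heat shock gene had the pattern of Bag3 over the libraries.

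In the rest of the small heat shock family, Cryab had the lowest log2 fold change of the genes tested in each assay, without a call. Cryab, which encodes alpha-B-crystallin, another heat-inducible BAG3 partner, had 23.0, 29.0, 4.55 and 5.19 CPM in KO footprints, against 55.2, 23.5, 15.2 and 13.6 CPM in WT. In RNA it had 14.5, 14.8, 4.55 and 1.22 CPM in KO, against 34.5, 12.1, 11.5 and 15.3 CPM in WT. Replicate 2 was the exception, with KO above WT in both assays. The log2 fold change was -1.05 (SE 0.32) in footprints and -1.07 (SE 0.69) in RNA. Cryab did not pass in either assay (edgeR adjusted p = 0.806 in footprints and 1 in RNA), although its unadjusted footprint p was 0.0105. Without WT 1, where it was highest, the RNA value was -0.57. Hspb6, which encodes HSP20, had 3.48 ± 0.186 CPM in KO RNA and 2.08 ± 0.859 CPM in WT RNA (SD, n = 4 each). Its RNA did not overlap between genotypes, as in 1.28% of all genes tested in RNA. The RNA counts behind it were few, at 20, 20, 23 and 23 in KO, against 6, 10, 16 and 19 in WT. The log2 fold change of Hspb6 RNA, 0.73 (SE 0.42), did not pass. Hspb6 footprints overlapped, at 0.35 (SE 0.41). Hspb11, which despite its name encodes a ciliary transport protein, had -0.10 (SE 0.12) in footprints and -0.15 (SE 0.31) in RNA. Hspb2, Hspb3 and Hspb9 had at most 12 summed counts in any group and were not tested, so that 4 genes of this family of 10 were tested in footprints and 3 in RNA.

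Hsf1 itself had the largest RNA difference among the tested partners, which did not pass the test. Its RNA was at 58.7, 41.1, 71.3 and 75.0 CPM in KO, against 35.9, 34.1, 57.5 and 63.0 CPM in WT. KO was higher in 4 of 4 same-numbered pairs, while the ranges overlapped because replicates 3 and 4 were high in both genotypes. Its log2 fold change was 0.37 (SE 0.29, edgeR adjusted p = 1), and 2 SE on either side spanned folds of 0.866 to 1.93. With the replicate number as a block, which takes up the shift between replicates, it was 0.38 (SE 0.14, edgeR adjusted p = 0.765), a span of 1.07 to 1.58. It did not pass over all genes, in a fit that called 0 genes. In footprints Hsf1 had 16.99, 12.2, 17.6 and 18.3 CPM in KO, against 14.5, 12.5, 14.5 and 16.1 CPM in WT, with a log2 fold change of 0.17 (SE 0.16). Hsf1 activity is set mainly by trimerisation and phosphorylation of the protein, which neither assay measures. Hsf2, a related factor, had 0.19 (SE 0.26) in RNA and 0.22 (SE 0.14) in footprints, and Hsbp1, a small HSF1-binding protein, had -0.16 (SE 0.37) in RNA and -0.19 (SE 0.10) in footprints. The 3 tested genes of the list of heat shock factors gave 0 calls, with a median of 0.19 in RNA and 0.17 in footprints.

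For all 9 members other than Bag3 taken as a group, 0 of 8 tested in footprints and 0 of 7 tested in RNA were called, in either direction, and 0 had an unadjusted p under 0.05. Over all genes 0.0262% were called higher and 0.00872% lower in footprints, and 0.00901% higher and 0% lower in RNA. With the replicate number as a block, 0 genes of any kind were called in either assay, so that fit could not call any of the 9. Among the 9, Hsf1 RNA was the 1 value with an unadjusted p under 0.05 in that fit. Without the block, the log2 fold changes of the 9 ran from -0.14 to 1.12 in footprints, with a median of 0.06. In RNA they ran from -0.05 to 0.37, with a median of 0.03. The medians over all genes tested were 0.01 in each assay. The test made few calls on any gene. Before adjustment, p was under 0.05 for 236 genes higher in KO footprints and 291 lower in them, and for 89 higher and 119 lower in KO RNA. DESeq2 called 56 higher and 26 lower in footprints and 13 higher and 7 lower in RNA, with 0 of the other 9 members among them.

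**Figure D2:**
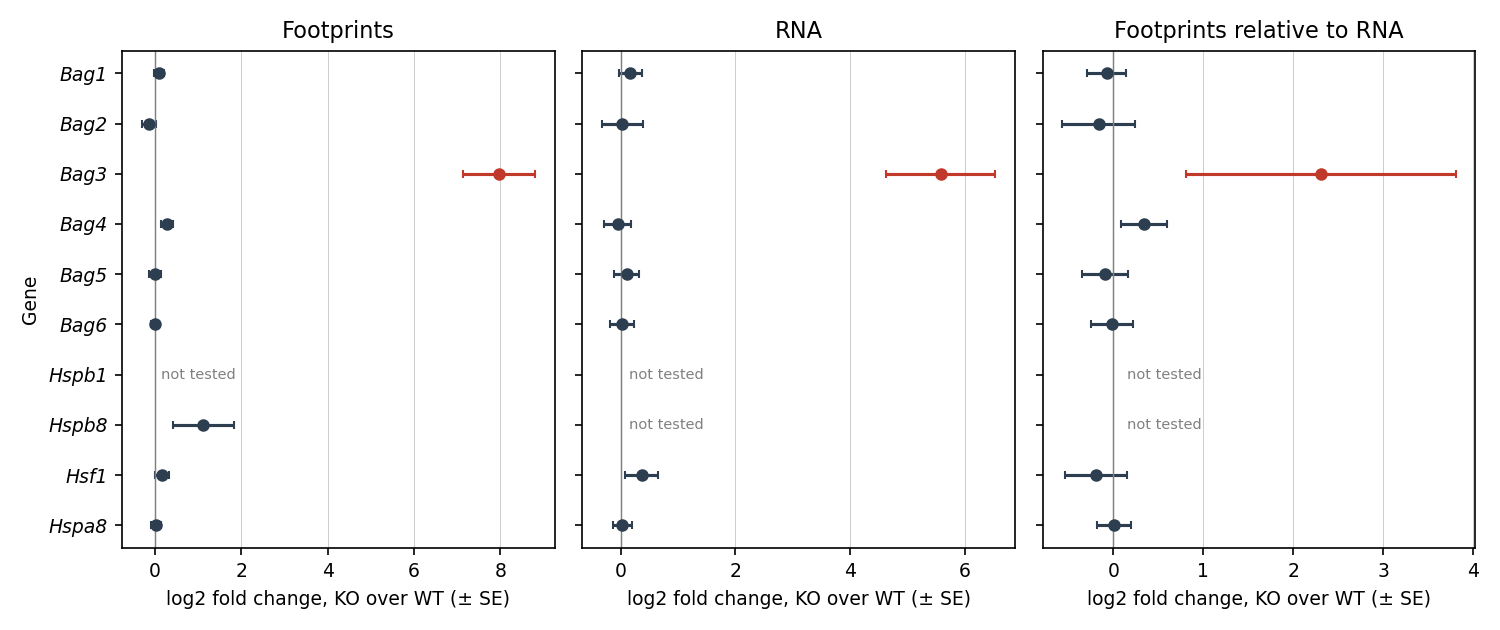
Log2 fold change of KO over WT, with bars of 1 SE, for footprints, RNA and footprints relative to RNA (the assay by genotype interaction), 1 row per member. Bag3 (red) lies at 7.97 in footprints and 5.58 in RNA, values that rest on 2 and 7 WT counts, and the other tested members lie between -0.19 and 1.12.

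Genes that heat shock induces through HSF1 were next compared as a list of 20, which shares Hspb1, Hspb8 and Hspa8 with the members and holds Cryab. Of its 18 genes tested, 0 were called in either assay, where at most 0.0262% of all genes were called in a direction. Of these, 12 were positive and 6 negative in footprints, with a median log2 fold change of 0.04, and 10 were positive and 8 negative in RNA, with a median of 0.02. Over all genes the median was 0.01 in each assay. Ubb, a polyubiquitin gene, had -0.06 (SE 0.12) in footprints and -0.13 (SE 0.23) in RNA. Hspe1, the mitochondrial HSP10 gene, had -0.12 (SE 0.16) in footprints and -0.18 (SE 0.36) in RNA. Of the genes in this list with a promoter window, 10 of 16 held either form of the motif, 62.5%, against 17% of all genes in the table. The share was 27.3 to 50.0% in the 4 other lists examined.

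The inducible genes of this list were followed by library, chosen after their values were seen. Dnajb1, which encodes HSP40, a J-domain protein that feeds clients to HSP70, was high in replicate 1 of both genotypes. Its RNA had 276, 85.2, 69.1 and 71.2 CPM in KO replicates 1 to 4, against 847, 102, 64.2 and 63.3 CPM in WT. Its footprints had 225, 60.5, 68.7 and 62.3 CPM in KO, against 388, 56.4, 63.7 and 68.3 CPM in WT. The log2 fold change of Dnajb1 was -1.10 (SE 0.90) in RNA and -0.33 (SE 0.59) in footprints, and without WT 1 it was 0.72 and 0.50. Culture WT 1, with the most Dnajb1, had 0 footprint counts and 4 RNA counts of Bag3. Culture KO 1, with the most Dnajb1 in KO, had 255 footprint counts and 125 RNA counts of Bag3. A relation between the 2 genes was not tested. Hspa1a and Hspa1b, the inducible HSP70 genes, are near-identical copies whose reads cannot be assigned with certainty. Hspa1a RNA had 12.9, 7.79, 0.975 and 4.26 CPM in KO, against 17.5, 7.37, 3.62 and 4.85 CPM in WT. Hspa1b RNA had 9.47, 3.98, 10.7 and 3.04 CPM in KO, against 9.41, 8.13, 3.29 and 6.41 CPM in WT. KO and WT overlapped for both copies. Hsph1, the HSP110 exchange factor, had 0.16 (SE 0.13) in footprints and 0.09 (SE 0.20) in RNA.

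**Figure D3:**
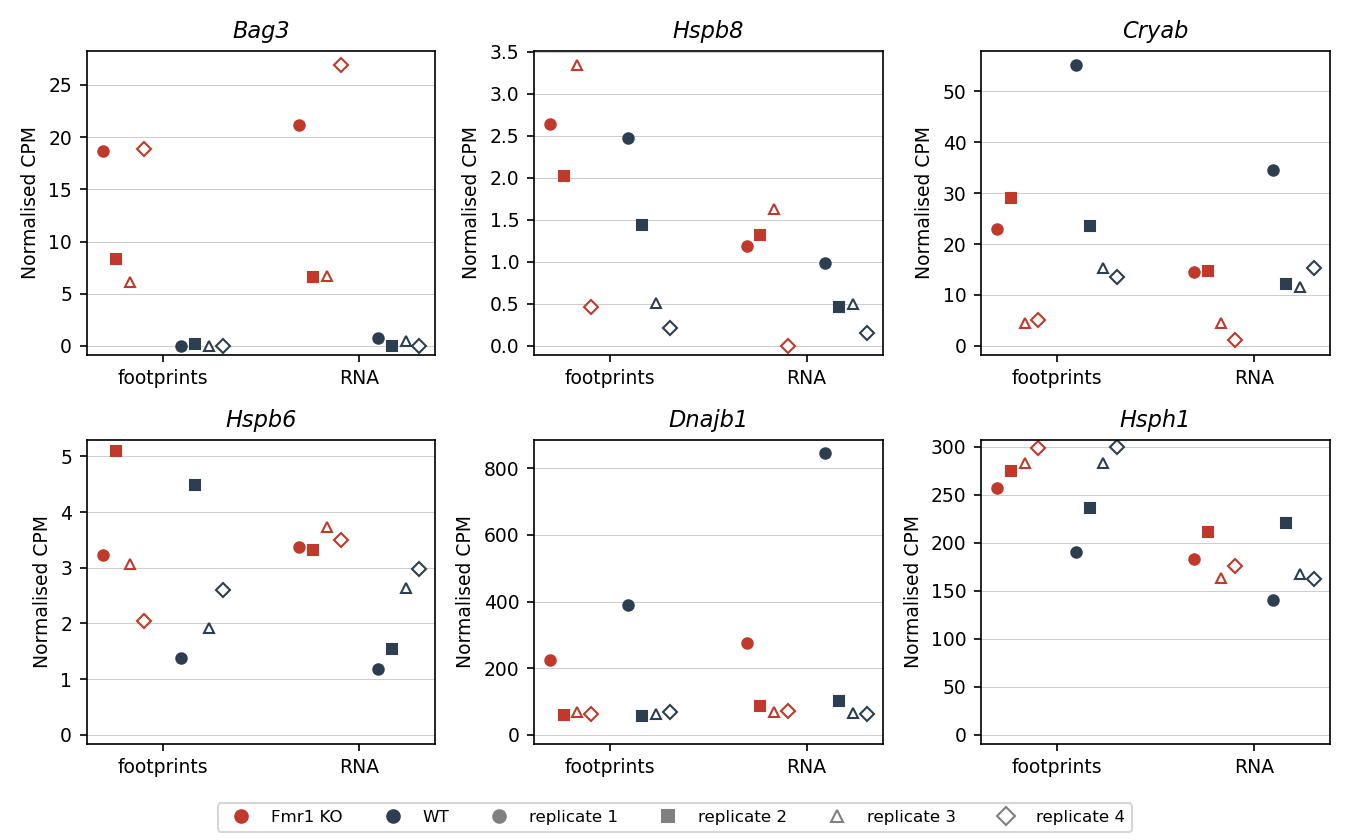
Normalised CPM of Bag3 and 5 heat-inducible or small heat shock genes in each library, KO (red) left of WT (dark) within each assay, replicates 1 and 2 filled and 3 and 4 open. Dnajb1 is high in replicate 1 of both genotypes (RNA 276 CPM in KO and 847 CPM in WT), whereas Bag3 is high in KO libraries, up to 26.9 CPM in RNA.

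A further 7 chaperone lists gave 0 calls between genotypes in either assay. At most 0.0262% of all genes were called in a direction, so that 0 calls in a list says little. The HSP70 family had a median log2 fold change of 0.12 in footprints over 12 genes tested and of 0.03 in RNA over 13. Hspa5, the chaperone BiP of the endoplasmic reticulum, had 0.20 (SE 0.16) in footprints and 0.14 (SE 0.20) in RNA. Other HSP70 nucleotide exchange factors, which act on the same step as BAG1 and BAG3, had medians of 0.13 in footprints and 0.10 in RNA over 8 genes. Hspa4, an HSP110-type exchange factor, had 0.14 (SE 0.12) in footprints and -0.02 (SE 0.25) in RNA. Hyou1, which acts in the endoplasmic reticulum, had 0.09 (SE 0.20) in footprints and 0.13 (SE 0.29) in RNA. J-domain co-chaperones had medians of 0.07 in footprints and -0.01 in RNA over 20 genes. Dnaja1 had 0.11 (SE 0.11) in footprints and 0.12 (SE 0.26) in RNA, and Dnaja2 had 0.10 (SE 0.11) and 0.23 (SE 0.19).

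HSP90 and its co-chaperones had positive values in 12 of 12 genes in footprints (median 0.14) and in 12 of 12 in RNA (median 0.15), with 0 called. These are 2 assays of the same cultures, and the medians over all genes were 0.01 in each. Footprints of this list were also positive in 12 of 12 genes between replicate sets, which divide the cultures across genotypes. The share of positive genes over all genes was not taken, and the list was not tested as a set. Hsp90ab1, the constitutive cytosolic HSP90, had 3849 ± 360 CPM in KO footprints and 3607 ± 583 CPM in WT footprints (SD, n = 4 each, log2 fold change 0.10, SE 0.11). Ptges3, the co-chaperone p23, had 0.24 (SE 0.18) in footprints and 0.20 (SE 0.26) in RNA. Hsp90aa1, the heat-inducible form, had 0.07 (SE 0.21) in footprints and 0.15 (SE 0.56) in RNA, and turned negative in both on leaving out WT 1 (-0.11 and -0.03) or KO 2 (-0.01 and -0.63), and in RNA without WT 4 (-0.02). The TRiC chaperonin and prefoldin list had medians of 0.08 in footprints and 0.06 in RNA over 14 genes, with Cct2 at 0.21 (SE 0.14) in footprints and 0.11 (SE 0.23) in RNA.

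Genes that act with BAG3 in chaperone-assisted autophagy were not called either. Of 11 tested, 8 were negative in footprints (median -0.08) and 9 in RNA (median -0.14), which are 2 assays of the same cultures. The medians over all genes were 0.01 in each assay, and no list was tested as a set. Sqstm1, the autophagy receptor p62, had 394 ± 126 CPM in KO footprints and 484 ± 227 CPM in WT footprints (SD, n = 4 each, log2 fold change -0.22, SE 0.27). Dynll1, a dynein light chain, had 0.07 (SE 0.15) in footprints and 0.06 (SE 0.36) in RNA, and Map1lc3b, which encodes the autophagosome protein LC3B, had -0.19 (SE 0.22) and -0.14 (SE 0.42). Synpo2, which encodes the filament protein myopodin that BAG3 binds, and Stub1, which encodes CHIP, are named for the extremes of the list, after their values were seen. Synpo2 had -1.88 (SE 0.69, edgeR adjusted p = 0.999) in footprints and -0.83 (SE 1.12) in RNA, at 0.805 ± 0.494 CPM in KO footprints and 3.39 ± 3.13 CPM in WT. Stub1 had 0.23 (SE 0.12) in footprints and 0.37 (SE 0.32) in RNA, and was higher in KO in 4 of 4 same-numbered pairs in both assays.

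**Figure D4:**
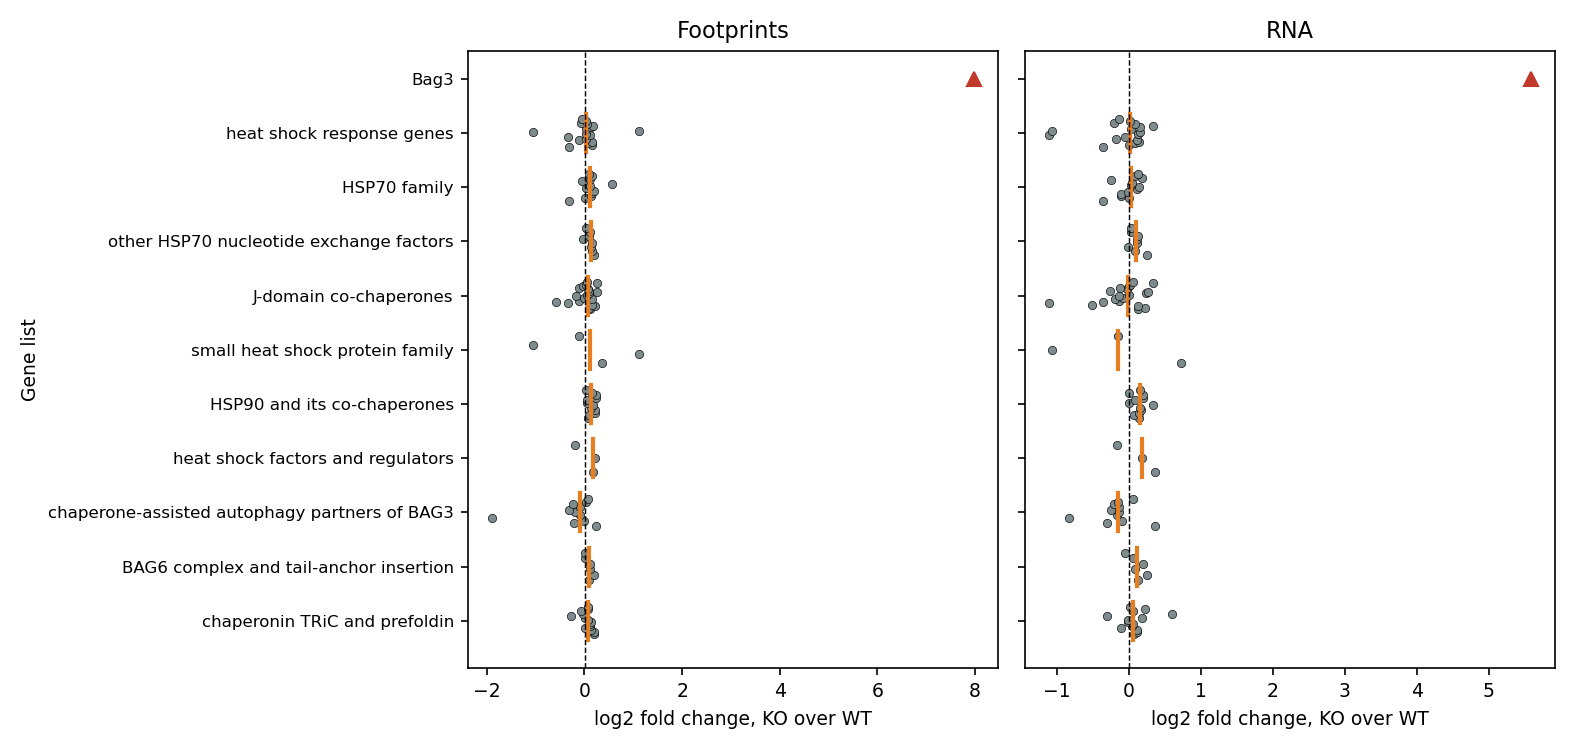
Log2 fold change of KO over WT for each tested gene (grey) of the chaperone lists, with the list median as an orange bar, in footprints (left) and RNA (right). List medians lie between -0.15 and 0.19 while Bag3 (red triangle), a description, lies at 7.97 and 5.58.

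Footprints relative to RNA, the translational efficiency, did not differ detectably between genotypes for the members. Of the 7 members tested besides Bag3, 0 were called, and their log2 fold changes of efficiency ran from -0.19 for Hsf1 to 0.34 for Bag4 (SE 0.34 and 0.25). Over all 10863 genes tested, 0% were called higher and 0% lower, 7 in each direction had a p under 0.05 before adjustment, and DESeq2 called 0 in each direction. For Bag3 the ratio of footprint CPM to RNA CPM could be taken in KO alone, where it was 0.884, 1.26, 0.92 and 0.702 in replicates 1 to 4, a mean of 0.942 ± 0.234 (SD, n = 4). In WT no culture had both kinds of count. In KO the mean ratio of Bag3 lay between those of Bag5, 0.743 ± 0.025, and Bag4, 1.33 ± 0.25 (SD, n = 4 each). The range of Bag3 overlapped that of Bag5, 0.714 to 0.774, and that of Bag4, 1.04 to 1.64.

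**Figure D5:**
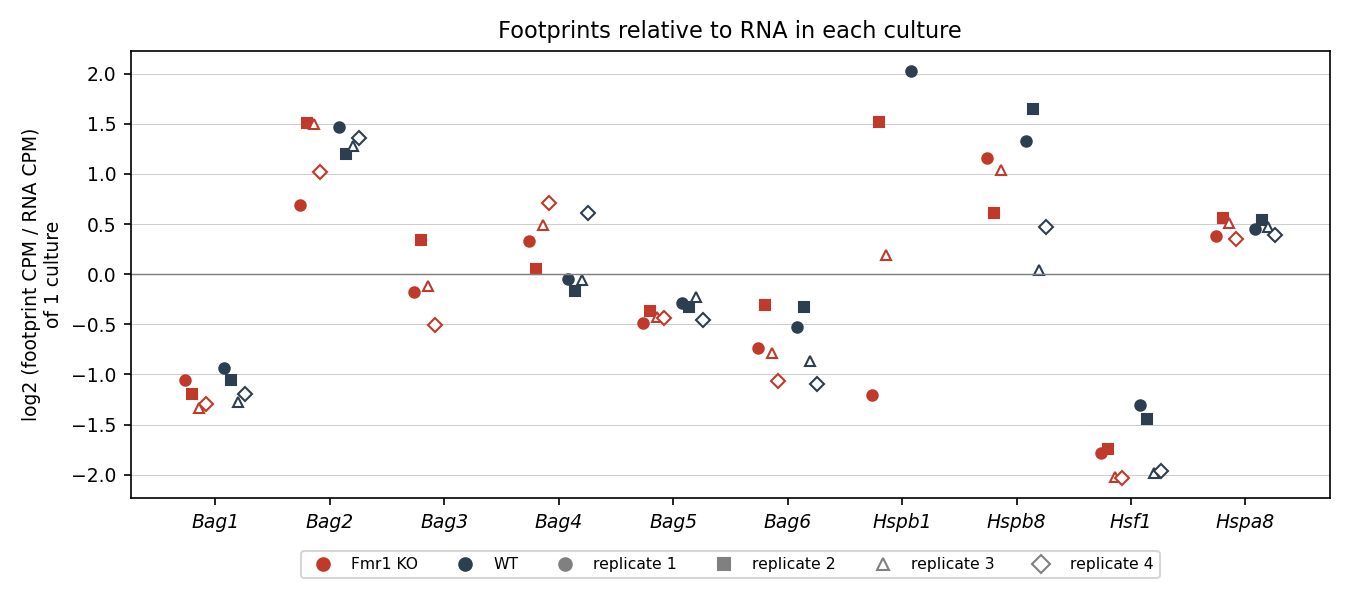
Log2 ratio of footprint CPM to RNA CPM in each culture for the 10 members, KO left of WT, where cultures with a count of 0 in either assay are not drawn. Bag3 in KO lies between -0.51 and 0.34, Bag2 is above 0 and Bag1 and Hsf1 are below 0 in every culture of both genotypes.

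The members differed among themselves in how many footprints they carried for their RNA, measured within WT and so apart from the genotype. Of 7 members tested, Bag2 and Hspa8 were called higher in footprints than in RNA, relative to the average gene, where 22.7% of all genes were called higher. Bag1 and Hsf1 were called lower, where 23.8% of all genes were called lower. Bag2 had 22.9 to 44.1 CPM in WT footprints and 8.63 to 17.2 CPM in WT RNA (log2 difference 1.48, SE 0.29, edgeR adjusted p = 0.0033). Hsf1 had 12.5 to 16.1 CPM in WT footprints and 34.1 to 63.0 CPM in WT RNA (-1.53, SE 0.28, adjusted p = 0.00227). Both of these did not overlap between assays and kept their calls on leaving out any WT culture. Bag1 had 25.9 to 31.5 CPM in WT footprints and 49.6 to 76.6 CPM in WT RNA (-0.94, SE 0.22, adjusted p = 0.0073), a call lost without WT 3 (0.103) or WT 4 (0.0734). Hspa8, with 0.65 (SE 0.22, adjusted p = 0.0413), lost its call on leaving out any 1 of the 4 WT cultures (0.112 to 0.225). Bag6 had -0.53 (SE 0.22, adjusted p = 0.0779) and was called with the culture as a block (-0.51, adjusted p = 0.00275). Bag4 and Bag5 were not called, at 0.26 (SE 0.25) and -0.14 (SE 0.20). On the per-length TPM scale the gap was narrower for Bag2, at 47.8 TPM in WT footprints and 30 TPM in WT RNA, and wider for Bag1, at 44 and 149.5 TPM. The libraries of the 2 assays were made by different protocols, and the part of that in these differences was not tested.

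The members were also compared between replicate sets, which the labels separate by identifier length, and the shares called, in either direction, were near or below those of all genes. In footprints, 2 of 9 members tested were called higher in replicates 3 and 4 than in replicates 1 and 2, with genotype in the fit, where 7.56% of all genes were called higher and 11.5% lower. Bag4 averaged 30.6 ± 3.04 CPM in replicates 3 and 4 and 20.4 ± 3.76 CPM in replicates 1 and 2 (SD, n = 4 each, log2 difference 0.59, SE 0.14, edgeR adjusted p = 0.0255), without overlap. Its call was lost without KO 2, KO 3, KO 4, WT 3 or WT 4 (0.0508 to 0.0805). Bag2 averaged 35.1 ± 7.65 CPM in replicates 3 and 4 and 22.9 ± 1.01 CPM in replicates 1 and 2 (0.61, SE 0.17, adjusted p = 0.0401), also without overlap. Its call held on leaving out KO 3 and was lost on leaving out any other footprint library (0.0659 to 0.115). In RNA, 1 of 8 members was called, where 12.1% of all genes were higher and 13.1% lower. That gene was Hsf1, with 66.7 ± 7.95 CPM in replicates 3 and 4 and 42.4 ± 11.2 CPM in replicates 1 and 2 (0.67, SE 0.17, adjusted p = 0.0229), lost without KO 2, KO 4, WT 2, WT 3 or WT 4 (0.0549 to 0.0761). Hspb8 footprints had -1.18 (SE 0.71, adjusted p = 0.257), and -2.36 without KO 3 (adjusted p = 0.0385). Bag3 overlapped between the sets in both assays, at -0.27 (SE 0.66) in footprints and 0.10 (SE 0.85) in RNA. The RNA libraries carry no identifier that the labels name, and day of preparation was not given in the sources used here.

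By level per length the order of the members was nearly the same in both genotypes. In RNA the means ran from Hspa8 (2380 TPM in KO, 2359 TPM in WT) over Bag6 (199.5 and 199 TPM), Bag1 (166.5 and 149.5 TPM), Bag5 (60.8 and 57.5 TPM), Hsf1 (44.3 and 34 TPM) and Bag2 (30.5 and 30 TPM) to Bag4 (17 and 17.8 TPM). Hspb8 (2.75 TPM in KO, 1.5 TPM in WT) and Hspb1 (0.75 and 0.25 TPM) were at the bottom. Bag3 took the place between Bag4 and Hspb8 in KO and shared the lowest level with Hspb1 in WT. Neighbours whose ranges overlapped were Bag6 and Bag1 in KO, Hsf1 and Bag2 in both genotypes, and Bag3, Hspb8 and Hspb1. In footprints Bag2, with 44 TPM in KO and 47.8 TPM in WT, stood beside Bag1, with 47.5 and 44 TPM, and Hsf1 was lower, at 10 and 8.75 TPM.

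The 5 genes most like Bag3 over the 16 libraries are given as a description, since the values of Bag3 set the choice of the members. Likeness was the Pearson correlation of log2 CPM centred on the mean of its assay, and it reflects the KO to WT difference that the libraries share. Only genes that passed the filter in both assays were ranked, which left out Hspb1 and Hspb8. Coro2b, an actin-binding coronin, had r = 0.953, Cyp1b1, a cytochrome P450, 0.928, Naaa, a lysosomal acid amidase, 0.912, Eva1c, a heparin-binding membrane protein, 0.905, and Srebf1, the lipogenic transcription factor, 0.893. Each of the 5 was higher in every KO library than in any WT library in both assays, which a ranking by likeness to Bag3 favours. Among all genes tested, KO and WT libraries did not overlap in 1.28% for RNA and in 1.88% for footprints. Cyp1b1 RNA was at 8.78 to 137 CPM in KO and 0 to 1.23 CPM in WT, and Srebf1 RNA at 133 to 307 CPM in KO and 32.2 to 104 CPM in WT. The other members had r with Bag3 from -0.04 for Bag2 to 0.41 for Hsf1.

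Genes beside Bag3 on chromosome 7 were not called between genotypes, where at most 0.0262% of all genes were called in a direction. The 2 protein-coding genes of the table on either side, a rule by position added after the members had been seen, were Rgs10 and Tial1 before Bag3 and Inpp5f and Mcmbp after it. Their log2 fold changes ran from -0.02 to 0.22 in footprints and from -0.11 to 0.31 in RNA, with 0 called, and KO overlapped WT for each. Inpp5f, the nearest downstream from 128611181 to 128696436, had 40.3 ± 3.51 CPM in KO footprints and 38.5 ± 6.42 CPM in WT footprints (SD, n = 4 each). Tial1, an RNA-binding protein gene from 128439772 to 128461726, had 56.0 ± 6.26 CPM in KO RNA and 45.0 ± 11.2 CPM in WT RNA (SD, n = 4 each).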

How the data were processed

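Estimated (expected) counts and rounded TPM values per gene for 16 libraries were deposited by the authors in 2 tables, and the estimated counts stand as whole numbers in the table, so that rounding them before use changed none. Per the submitters' processing notes, the tools were RSEM 1.2.11, TopHat2 2.0.9, Bowtie2 2.1.0, bedtools 2.22.0, SAMtools 0.0.19 and cutadapt 1.7.1, with the mm10 build. The TPM values deposited by the authors are whole numbers and served as a score of level per length. Molecular identifiers in the footprint libraries are named per the labels; how they were used in counting is not given in the sources used here.

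The 27 rows that name no gene, 0.244 to 0.422% of each library, were left out. Counts were scaled by TMM within an assay, filtered by edgeR's filterByExpr and tested with edgeR 4.0.16 (quasi-likelihood) in R 4.3.3 over all genes, at a Benjamini-Hochberg adjusted p under 0.05. Footprint fits between genotypes carried a term for identifier length. Efficiency was the assay by genotype interaction over 16 libraries. SE is the log2 fold change divided by the square root of F. The alternatives were RLE size factors, no filter, DESeq2 1.42.0, limma 3.58.1 on log2(TPM + 1) and log2(TPM + 0.5), blocks, set terms and leaving out each library. The calls were tested on simulated counts first.

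Same-numbered KO and WT cultures deviated together, with r of 0.379 to 0.54 for footprints and of 0.481 to 0.613 for RNA, and the replicate number was used as a block in an alternative fit on that ground, which comes from the data and not from the labels. Cultures of different number reached r = 0.453 for footprints and 0.368 for RNA. The members and lists were chosen with earlier results of these data known. Besides the members and Fmr1, the text names, per list, up to 4 called genes or the 2 of highest TPM, every detected small heat shock gene and the 5 genes most like Bag3. The inducible genes Dnajb1, Hspa1a, Hspa1b, Hsph1, Hspe1, Hspd1 and Hsp90aa1, as well as Map1lc3b, Stub1 and Synpo2, were added after their values were seen. Of 20409 symbols, 19269 matched the RefSeq table that gave coordinates. P-values between genotypes and between replicate sets measure the spread between independently isolated cultures, and the count intervals cover counting error only. The main fits of efficiency and of footprints against RNA within WT had no term for the culture. They treated the footprint and RNA libraries of 1 lysate as independent, and the culture was a block only in an alternative.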

Additional observations from a re-analysis of the deposited data

Results flagged for a closer look

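In 9 of 64 groups of 4 libraries, 1 library stood far from the other 3, where chance flags about 1 in 20 groups of independent, continuous values. That rate is no yardstick here, since 2 cases are 2 counts against 0, the 4 Dnajb1 cases are paired assays of the same 2 cultures, and Dnajb1 was added after its values were seen. Bag3 in WT RPF 2 had 0.152 CPM, from 2 counts, while the other WT footprint libraries had 0. Hspb1 in WT RNA 1 had 0.392 CPM, also from 2 counts, while the others had 0. Bag5 in culture KO 4 stood high in both assays, with 70.4 CPM in footprints, where the other KO libraries had 48.7 to 48.9 CPM, and 95.2 CPM in RNA, where they had 63.1 to 68.3 CPM. Cryab in WT RNA 1 had 34.5 CPM, where the other WT libraries had 11.5 to 15.3 CPM.

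Dnajb1 stood high in replicate 1 of all 4 groups. It had 225 CPM in KO RPF 1, where the other KO footprint libraries had 60.5 to 68.7 CPM, and 388 CPM in WT RPF 1, where the others had 56.4 to 68.3 CPM. It had 276 CPM in KO RNA 1, where the others had 69.1 to 85.2 CPM, and 847 CPM in WT RNA 1, where the others had 63.3 to 102 CPM.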

How the results depend on the processing

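Counts of genes called between genotypes were small and moved with the method. In RNA, 1 gene was called higher, against 13 with DESeq2, 2 with limma on log2(TPM + 1), 0 with a term for the replicate set and 0 to 1 on leaving out a library, and 0 were called lower, against 7 with DESeq2. In footprints, 3 were called higher, against 56 with DESeq2 and 0 to 11 on leaving out a library. In footprints 1 gene was called lower, against 26 with DESeq2, 2 with RLE, without a filter and with limma at either pseudocount, and 0 to 3 on leaving out a library. With the replicate number as a block, pairing same-numbered cultures, 0 genes were called in either direction in both assays. Within WT, 2264 genes were higher and 2379 lower in footprints, against 3900 and 3686 with the culture as a block, and 1292 to 1876 and 1369 to 2207 on leaving out a culture. Between replicate sets, leaving out a library gave 86 to 864 higher and 233 to 1358 lower in footprints (867 and 1318 with all), and 484 to 1311 higher and 608 to 1544 lower in RNA (1339 and 1457 with all). Leaving out a culture gave 0 calls in efficiency.

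The log2 fold changes whose sign turned were not called with all libraries, and the cause was not tested. Most were near 0, but Dnajb1 (RNA and footprints) and Hspa1a were not. In RNA, limma at pseudocounts 1 and 0.5 gave Bag2 -0.0158 and -0.0167, Bag6 -0.000641 and -0.000653 and Hsp90aa1 -0.0163 and -0.0168, and Hspa1b was 0.00482 without a filter and 0.0527 with a term for the replicate set. In footprints, Bag5 was -0.00751 with RLE, -0.00751 with DESeq2 and -0.00978 with the replicate block, Bag6 was -0.00938 with RLE, -0.00943 with DESeq2 and -0.00164 without the identifier term, and Hspd1 was -0.0293 without that term. The efficiency of Hspa8 was -0.00887 with RLE, -0.00888 with DESeq2, -0.000761 with the replicate block and -0.000742 with the culture block. Over the libraries left out, RNA ranged from -0.24 to 0.24 for Bag2, -0.16 to 0.10 for Bag4, -0.0536 to 0.193 for Bag5, -0.0864 to 0.138 for Bag6, -0.0522 to 0.0835 for Hspa8, -1.87 to 0.72 for Dnajb1, -0.95 to 0.29 for Hspa1a, -0.31 to 0.24 for Hspa1b, -0.63 to 0.63 for Hsp90aa1 and -0.284 to 0.0649 for Hspd1. Footprints ranged from -0.12 to 0.10 for Bag5, -0.0198 to 0.0311 for Bag6, -0.0266 to 0.0653 for Hspa8, -0.69 to 0.50 for Dnajb1, -0.11 to 0.24 for Hsp90aa1 and -0.11 to 0.17 for Hspd1. Efficiency ranged from -0.369 to 0.0246 for Bag2, -0.13 to 0.10 for Bag6 and -0.0823 to 0.0852 for Hspa8. Between replicate sets, Bag1 footprints ranged from -0.0263 to 0.0851, and Bag3 from -1.30 to 0.18 in footprints and -0.90 to 0.69 in RNA.

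The fitted size of Bag3, on which the members were chosen, lay between 2.88 and 10.3 in footprints and between 2.86 and 6.42 in RNA over the alternatives, since it rests on few WT counts. Its constant sign follows from the choice and is no support. Few counts limit Hspb1 and Hspb8 RNA, while Hspb8 footprints also spread widely between cultures. With 4 cultures a genotype, the other members are known to within the folds at 2 SE.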

Other observations

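The chaperone lists were also compared between footprints and RNA within WT, where 22.7% of all genes were called higher in footprints and 23.8% lower. No list was tested as a set. The TRiC chaperonin and prefoldin list had 10 of 14 called higher and 0 lower, with Vbp1, a prefoldin subunit, at 197 ± 53.9 CPM in footprints and 20.7 ± 9.62 CPM in RNA (SD, n = 4 each, log2 difference 3.44, edgeR adjusted p = 0.000266). HSP90 and its co-chaperones had 6 of 12 called higher and 0 lower, and the HSP70 family 7 of 10 and 0. Other exchange factors had 5 of 8 higher and 0 lower, J-domain co-chaperones 9 of 19 and 1, heat shock response genes 10 of 16 and 2, autophagy partners 4 of 10 and 2, and the BAG6 list 1 of 6 and 1. Hsp90ab1 (log2 difference 0.00), Cdc37 (-0.01) and Fkbp4 (-0.02), all of the HSP90 list, were close to the average gene. Hsbp1 had the largest difference named here, with 164 ± 22.4 CPM in footprints and 5.66 ± 1.50 CPM in RNA (SD, n = 4 each, log2 difference 5.03, edgeR adjusted p = 4.77e-05). Per length the gaps were smaller, with 1002 TPM in WT footprints and 432 TPM in WT RNA for Hsbp1, and 334.5 and 60.8 TPM for Vbp1. The libraries of the assays were made by different protocols, whose part in these values was not tested.

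Autophagy and quality control partners of BAG proteins differed between replicate sets in RNA, where 12.1% of all genes were called higher in replicates 3 and 4 and 13.1% lower. Of the 11 autophagy partners tested 4 were lower, among them the receptor gene Nbr1 (log2 difference -1.16, SE 0.16, edgeR adjusted p = 0.00751), and 1 was higher, the CHIP gene Stub1 (0.84, SE 0.14, adjusted p = 0.0093). Of the 6 genes of the BAG6 list 4 were higher, among them Rnf126, a ubiquitin ligase that BAG6 recruits (1.09, SE 0.16, adjusted p = 0.00767).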
